A study of Mus musculus with 23 samples.

Results

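The genes described here encode 10 proteins stored in the specific (secondary) granules of mouse neutrophils: Ltf, Camp, Ngp, Lcn2, Chil3, Cd177, Olfm4, Hp, Lyz2 and Pglyrp1. They were chosen by name, as proteins of that granule class, from the 21878 genes listed for sorted neutrophils, and all 10 were also among the 55335 genes listed for whole lung. RNA-Seq had been run on 23 libraries in 9 groups, taken from mice in 3 experiments. In the tissue comparison, neutrophils were sorted as CD45+CD11b+Ly6G+ cells from bone marrow (BM), peripheral blood (PB) and perfused lung of wt mice, with 3 libraries per tissue. In the Piezo1 experiment, neutrophils came from lung and PB of wt and cko mice (WT and Piezo1-cKO here), with 2 libraries per group. Piezo1-cKO mice carried Piezo1 fl/fl, with loxP sites around part of the gene, and Vav1-iCre. That Cre is active in all hematopoietic cells, so the deletion was not limited to neutrophils. Whether the WT controls carried the floxed allele was not given for these libraries. In the depletion experiment, whole lung was taken from wt mice given an isotype antibody and from mice given anti-Ly6G antibody, labelled pmn deletion, with 3 libraries per group. The paper names C57BL/6J for its purchased mice and gives young adults of either sex for the study as a whole. It also depleted neutrophils at an early age. Its text does not state the age of the whole lung mice or the background of the Piezo1-cKO line. Whether the libraries of the Piezo1 and depletion experiments came from separate mice was not stated, so their p-values measure only the spread between libraries.

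Neutrophils make their granule proteins in waves while they mature in the marrow. Primary granule proteins are made first, in promyelocytes. Specific granule proteins follow in myelocytes and metamyelocytes, under C/EBPε and other C/EBP factors, and gelatinase granule proteins come last. The proteins are then carried in the granules after the genes have largely been shut off, so a transcript level in a circulating neutrophil does not give the protein content of its granules. Among the 10 genes, Ltf (lactoferrin), Lcn2 (lipocalin 2) and Hp (haptoglobin) encode proteins that withhold iron, bacterial siderophores or hemoglobin. Camp (cathelicidin), Lyz2 (lysozyme M) and Pglyrp1 (a peptidoglycan recognition protein) encode antimicrobial proteins. Ngp encodes a cathelicidin- and cystatin-related granule protein and Chil3 a chitinase-like lectin. Cd177 encodes a GPI-anchored protein of the granule membrane and the cell surface, and Olfm4 encodes olfactomedin 4, carried by a subset of neutrophils. Lyz2, Hp, Lcn2 and Chil3 are not made by neutrophils alone: lysozyme and Chil3 are abundant in alveolar macrophages, and Hp and Lcn2 can be made by epithelium.

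Ltf, Camp and Ngp lie together on chromosome 9 (build GRCm38.p6). Camp spans chr9:109847377-109849456 on the minus strand with 4 exons, Ngp spans chr9:110419808-110423012 on the plus strand with 4 exons, and Ltf spans chr9:111019292-111042766 on the plus strand with 17 exons. Lcn2 is on chromosome 2, Chil3 on 3, Cd177 and Pglyrp1 on 7, Hp on 8, Lyz2 on 10 and Olfm4 on 14. RefSeq promoters of the same build were matched for 9 of the 10 genes (the exception was Hp). The 250 bases before the annotated start are shown for the 4 genes that fell the most from BM to PB and lung, because they moved together. Capitals mark a match to the C/EBP motif TTGCNNAA on either strand. The promoters lie at chr9:111019042-111019291 for Ltf (plus strand), chr9:110419558-110419807 for Ngp (plus strand), chr9:109849457-109849706 for Camp (minus strand) and chr3:106167565-106167814 for Chil3 (minus strand).
Ltf: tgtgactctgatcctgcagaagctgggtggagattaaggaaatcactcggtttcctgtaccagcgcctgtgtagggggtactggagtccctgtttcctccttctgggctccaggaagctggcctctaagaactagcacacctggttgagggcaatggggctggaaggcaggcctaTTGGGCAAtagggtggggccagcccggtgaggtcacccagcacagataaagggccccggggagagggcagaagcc
Ngp: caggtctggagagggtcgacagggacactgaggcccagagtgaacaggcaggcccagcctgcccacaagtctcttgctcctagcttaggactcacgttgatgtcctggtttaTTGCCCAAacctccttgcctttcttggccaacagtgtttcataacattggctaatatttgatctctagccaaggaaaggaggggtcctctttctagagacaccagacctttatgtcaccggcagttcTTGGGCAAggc
Camp: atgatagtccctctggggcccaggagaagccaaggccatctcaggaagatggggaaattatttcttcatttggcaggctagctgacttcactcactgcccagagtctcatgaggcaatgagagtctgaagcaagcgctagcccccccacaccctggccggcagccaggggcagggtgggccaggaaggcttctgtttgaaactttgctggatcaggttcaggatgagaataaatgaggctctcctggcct
Chil3: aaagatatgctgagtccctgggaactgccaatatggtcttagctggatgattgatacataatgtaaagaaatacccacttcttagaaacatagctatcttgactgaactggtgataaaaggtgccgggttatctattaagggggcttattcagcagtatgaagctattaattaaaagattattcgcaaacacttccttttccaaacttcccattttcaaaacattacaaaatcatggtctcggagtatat

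The Ltf promoter held 1 match on the reverse strand, which reads TTGGGCAA in the sequence as printed, from base -75 counted from the start. The Ngp promoter held 2, TTGCCCAA from base -138 and a match on the reverse strand, printed as TTGGGCAA, from base -11. None lay in the windows of Camp and Chil3. Over windows of 300 bases, which add 50 bases after the start, the motif was found in 3 of the 9 promoters (Ltf, Ngp and Lcn2) and in 10.8% of all 32851 promoters. The PU.1 motif GAGGAAG was found in 3 of 9 (Lcn2, Pglyrp1 and Olfm4) against 13.6% of all promoters, and no match of one motif overlapped a match of the other. These matches are letters in a window and no binding was measured, and the 4 genes that fell the most were split between windows with and without a match.

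Levels are given as FPKM, fragments per kilobase of transcript scaled to the size of the library, which corrects for transcript length and so allows levels of different genes to be compared. From the FPKM values, 16502137 to 19330671 reads were recovered per sorted library of the tissue comparison, and 9621001 to 15034613 per library of the Piezo1 experiment. The depth of the whole lung libraries is unknown. All 6 neutrophil markers (Ly6g, S100a8, S100a9, Csf3r, Cxcr2, Itgam) were at 1 FPKM or more in every sorted library. Over these libraries the summed markers of other cells were under 1 FPKM for B cells and for basophils and mast cells, 2.22 to 6.53 for T cells, 6.47 to 26.1 for eosinophils, 1.11 to 24.1 for alveolar epithelium and airway and 0.983 to 3.31 for endothelium. Erythroid markers summed to at most 21.0 FPKM except in cKO PB, with 910 to 972. In the tissue comparison, PB library 3 stood apart from the other 2 PB libraries, with a chi-square per degree of freedom of 24.6 and 41 against 1.9 to 4.77 for the other pairs of libraries of 1 group. It had the highest PB level of all 10 genes. Piezo1 itself was covered by 200 to 227 reads in BM, 44 to 71 in PB and 34 to 61 in lung of the tissue comparison. In the Piezo1 experiment it had 3 to 10 reads in every library (8 and 8 in WT lung, 7 and 4 in cKO lung, 5 and 5 in WT PB, 3 and 10 in cKO PB), too few to check the genotype labels. Reads outside the deleted exons would also remain after the deletion.

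BM neutrophils carried the 10 genes at very high levels. Together they made up 12.7 to 13.0% of the summed FPKM of each BM library, against 1.66 to 2.12% in PB and 1.24 to 1.27% in lung. In BM, 8 of the 10 were among the 20 most abundant genes, and in lung none was. Ngp was the most abundant in BM at 19420 ± 512 FPKM (SD, n = 3), followed by Lyz2 at 10450 ± 71.9, Lcn2 at 10220 ± 329, Ltf at 8150 ± 127 and Camp at 7097 ± 124. Lyz2 and Lcn2 differed by less than the spread of Lcn2, and the other neighbours in that order were further apart than their SDs. Below them came Pglyrp1 at 2511 ± 25.4, Chil3 at 2378 ± 75.4, Hp at 1972 ± 56.4, Cd177 at 1591 ± 23.2 and Olfm4 at 133.3 ± 2.29 FPKM. In lung the order was different. Lcn2 (1422 ± 48.5), Hp (1220 ± 28.9) and Lyz2 (1181 ± 27.5) led, with Hp and Lyz2 closer than the sum of their SDs, and Ngp came after Pglyrp1 at 364.3 ± 7.95. Ltf at 121.1 ± 0.909, Camp at 90.38 ± 3.59, Cd177 at 51.64 ± 0.116, Chil3 at 35.57 ± 1.63 and Olfm4 at 11.59 ± 0.869 FPKM followed. Pglyrp1 was at 700.1 ± 14.4.

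**Figure D1:**
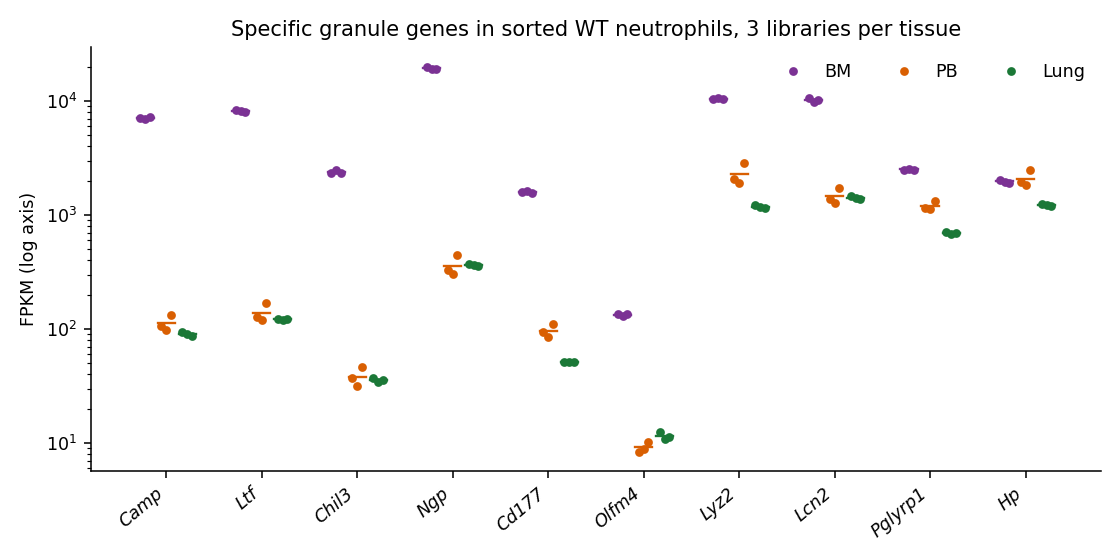
FPKM (log axis) of the 10 genes in sorted WT neutrophils of the tissue comparison, with 1 point per library and a line at the mean of the 3 libraries of bone marrow (BM), peripheral blood (PB) and lung. The BM points of Camp, Ltf, Chil3 and Ngp lie far above those of PB and lung, while the BM and PB points of Hp overlap.

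The first comparison asked how the transcripts differ between marrow, where the proteins are made, and the blood and lung. On the log2(FPKM + 1) scale, Camp, Ltf, Chil3 and Ngp showed the 4 largest falls of all 8236 genes tested between lung and BM. The same held for all 8237 genes tested between PB and BM. This scale understates falls to low levels. In ratio of plain FPKM, Top2a (named after its values were seen) fell further, from 15.83 in BM to 0.0627 in PB and 0.139 in lung. Ltf measured 8252, 8190 and 8008 FPKM in BM, 128, 119 and 169 in PB, and 122, 120 and 122 in lung. Camp measured 7153, 6955 and 7184 FPKM in BM, 105, 98.6 and 133 in PB, and 93.6, 91.1 and 86.5 in lung. For both genes every PB and lung library was far below every BM library, and lung kept 1.49% of the mean BM level of Ltf and 1.27% of that of Camp. Ngp measured 20012, 19179 and 19081 FPKM in BM, 329, 304 and 441 in PB, and 373, 361 and 359 in lung. Chil3 measured 2329, 2465 and 2340 FPKM in BM, 36.8, 31.5 and 46.4 in PB, and 37.2, 34.0 and 35.5 in lung. Again BM did not overlap with PB or lung, while PB and lung overlapped with each other for Ltf, Ngp and Chil3.

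On the scale of log2(FPKM + 1), the difference of lung minus BM was -6.28 for Camp (SE 0.03, adjusted p = 6.74e-16), -6.06 for Ltf (SE 0.02, adjusted p = 1.09e-16), -6.02 for Chil3 (SE 0.03, adjusted p = 3.82e-15) and -5.73 for Ngp (SE 0.02, adjusted p = 4.3e-16). All adjusted p-values are from limma, with Benjamini-Hochberg adjustment over all genes tested, and a gene was called at an adjusted p under 0.05 and a log2 difference over 1. By that rule 9 of the 10 genes were lower in lung than in BM, where 36% of all genes tested were called lower. The median gene was itself at -0.70 in lung, and relative to it Camp stood at -5.58 and Ltf at -5.36. After rescaling by the median ratio, the share of lower genes among those called went from 78.5% to 51%, and the same number of these 10 genes, 9, was called. From BM to PB, where the median gene stood at -0.12, the difference of PB minus BM was -5.98 for Camp (SE 0.11, adjusted p = 8.58e-09), -5.94 for Chil3, -5.88 for Ltf and -5.78 for Ngp. Again 9 of the 10 were called lower, against 14.1% of all genes. Among called genes, the lower share was 64.3% as deposited and 51.7% on TPM.

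Cd177, Olfm4, Lcn2, Lyz2 and Pglyrp1 fell less. Cd177 measured 1584, 1616 and 1571 FPKM in BM, 93.3, 85.4 and 111 in PB, and 51.6, 51.6 and 51.8 in lung, with log2 differences of -4.04 in PB and -4.92 in lung against BM. Olfm4 measured 135, 131 and 134 FPKM in BM, 8.37, 8.94 and 10.3 in PB, and 12.6, 10.9 and 11.3 in lung, with log2 differences of -3.72 and -3.42. Olfm4 was thus the only one of the 10 with every lung library above every PB library, as were 16.5% of all 7577 genes tested. Lcn2 measured 10546, 9887 and 10214 FPKM in BM, 1371, 1262 and 1725 in PB, and 1473, 1419 and 1376 in lung. Its log2 differences were -2.83 and -2.84, and lung kept 13.9% of the BM level, about as much as PB with 14.2%. Lyz2 measured 10443, 10528 and 10385 FPKM in BM, 2056, 1898 and 2884 in PB, and 1213, 1171 and 1161 in lung, with log2 differences of -2.22 and -3.14. Pglyrp1 measured 2503, 2539 and 2490 FPKM in BM, 1145, 1119 and 1331 in PB, and 715, 687 and 698 in lung. Its log2 differences were -1.07 and -1.84, and the call in PB was lost on TPM, where the difference was -0.83.

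Hp was the exception. It measured 2035, 1955 and 1925 FPKM in BM, 1962, 1816 and 2479 in PB, and 1248, 1223 and 1190 in lung. BM and PB overlapped (log2 difference 0.07, SE 0.11, adjusted p = 0.598, and 0.31 with an adjusted p of 0.00805 on TPM). Lung lay below both, at -0.69 against BM (SE 0.02, adjusted p = 1.31e-09), which did not pass the fold threshold and lay 0.01 above the median gene. So the transcripts of 1 granule class ranged from a level in lung of 1.27% (Camp) to 61.9% (Hp) of that in BM. The summed FPKM of cycling precursor markers moved in the same direction, at 56.6 to 57.4 in BM, 12.9 to 15.2 in PB and 19.2 to 21.8 in lung. Of its 7 genes, Top2a, Birc5, Ccnb1 and Cdk1 passed the filter only through BM, and Mki67 did so in PB against BM. Pcna made up most of the mean sum in PB (13.91 of 14.13 FPKM) and lung (18.3 of 20.19). It went the other way, higher in PB (0.53) and lung (0.91) than in BM by adjusted p alone. Summed monocyte and macrophage markers were 700 to 835 in BM, 339 to 406 in PB and 313 to 317 in lung. That sum was led in BM by Ly6c2 (660.5, 108.6 and 62.97 FPKM), while the other 3 of the 4 tested (Csf1r, Adgre1 and Cd68) were called higher in both PB and lung. The part of either list in these differences was not tested.

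**Figure D2:**
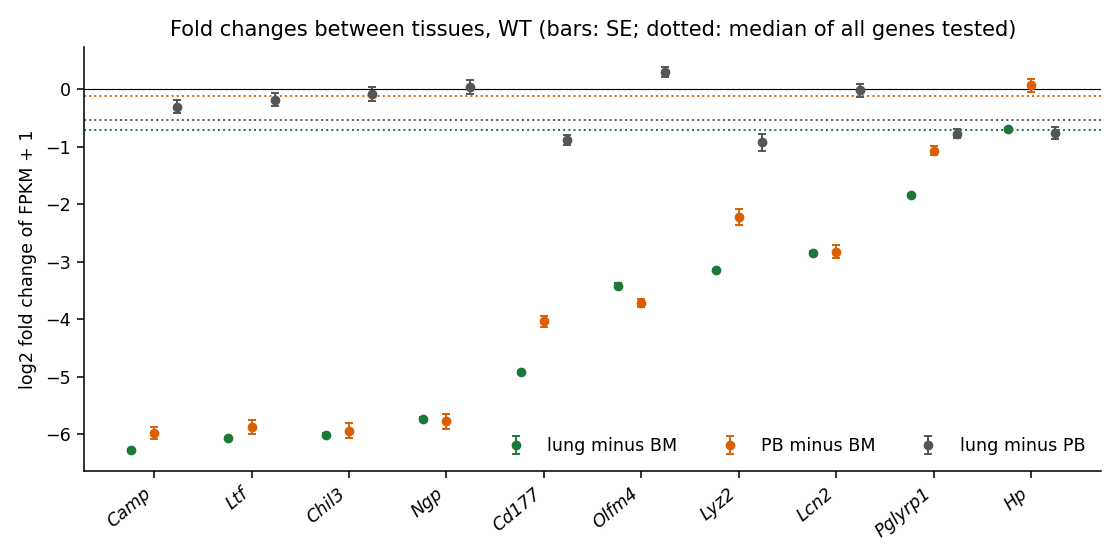
Log2 fold change of FPKM + 1 between tissues for the 10 genes in WT neutrophils, with the standard error, for lung minus BM, PB minus BM and lung minus PB. Dotted lines mark the median of all genes tested (-0.70, -0.12 and -0.54). Camp, Ltf, Chil3 and Ngp lie near -6 against BM and close to 0 between lung and PB, and Hp lies near the median in each comparison.

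Neutrophils of the lung and the blood were then compared with each other. By the fold rule, limma called none of the 10 genes, against 27.2% of all 7577 genes tested, and the same 6 genes had a p under 0.05 before and after adjustment. Of these, 5 were lower in lung, where 69.6% of all genes were lower at that level: Lyz2 by -0.92 (SE 0.14, adjusted p = 0.000375), Cd177 by -0.88 (SE 0.09, adjusted p = 3.47e-05), Pglyrp1 by -0.77 (SE 0.07, adjusted p = 2.4e-05), Hp by -0.76 (SE 0.11, adjusted p = 0.00025) and Camp by -0.30 (SE 0.11, adjusted p = 0.0282, but 0.29 after rescaling by the median ratio). Olfm4 was higher in lung by 0.31 (SE 0.09, adjusted p = 0.012), as were 16% of all genes. Ltf (-0.18, adjusted p = 0.198), Chil3 (-0.08, adjusted p = 0.544), Lcn2 (-0.02, adjusted p = 0.886) and Ngp (0.04, adjusted p = 0.756) did not differ beyond the spread of the libraries. The direction depends on the scaling, since the median gene was at -0.54 in lung: after rescaling by the median ratio, Ltf (0.41), Camp (0.29), Lcn2 (0.58), Chil3 (0.49) and Ngp (0.64) stood above PB in lung (adjusted p from 0.00221 to 0.0443), only Cd177 of the 5 lower genes was still below PB at an adjusted p under 0.05, and the lower share of all called genes went from 71.5% to 35.6%. Lyz2 passed the fold threshold without PB library 2 (-1.04), Camp missed an adjusted p of 0.05 without lung library 1, 2 or 3 (adjusted p from 0.0513 to 0.0904) and Olfm4 without lung library 1 (adjusted p = 0.0505), while Ltf was lower without PB library 2 (-0.28) and Ngp (0.20) and Lcn2 (0.11) were higher without PB library 3.

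The same contrast was available in the WT mice of the Piezo1 experiment, with 2 libraries per group. There the lung levels were much like those of the tissue comparison for Ltf and Camp, and the blood levels were higher. Ltf measured 121 and 120 FPKM in lung and 263 and 257 in PB. Camp measured 91.0 and 96.0 FPKM in lung and 246 and 271 in PB. In the tissue comparison the PB means of these 2 genes were 138.6 and 112.3 FPKM. Ngp was higher in both tissues of the Piezo1 experiment, at 690 and 670 FPKM in lung and 1249 and 1257 in PB. Chil3 measured 58.6 and 59.6 FPKM in lung and 164 and 146 in PB. These libraries came from 2 experiments, so their levels are set side by side without a test.

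Within the Piezo1 experiment, 5 of the 10 genes were called lower in WT lung than in WT PB, against 26.5% of all 7143 genes: Camp (-1.45, SE 0.05, adjusted p = 2.13e-07), Chil3 (-1.37, SE 0.05, adjusted p = 4.25e-07), Ltf (-1.10, SE 0.03, adjusted p = 3.49e-08), Lyz2 (-1.03, SE 0.01, adjusted p = 1.76e-09) and Cd177 (-1.01, SE 0.03, adjusted p = 1.69e-07). Lyz2 measured 2884 and 2856 FPKM in lung and 5837 and 5865 in PB, and Cd177 measured 67.4 and 67.7 in lung and 139 and 134 in PB. By adjusted p alone 9 were lower, against 72.5% of all genes, with Pglyrp1 at -0.998 (760 and 792 FPKM in lung, 1535 and 1567 in PB), Ngp at -0.88, Hp at -0.84 (1703 and 1720 against 3058 and 3089) and Lcn2 at -0.28 (1063 and 1061 against 1289 and 1289), which was 0.37 after rescaling by the median ratio. Olfm4 overlapped between the tissues, at 14.4 and 13.8 FPKM in lung and 14.3 and 12.8 in PB (0.06, adjusted p = 0.439, and 0.66 with an adjusted p of 0.000107 after that rescaling). The median gene was at -0.62 in lung, and after rescaling by the median ratio none of the 10 was called, with Camp at -0.81, Chil3 at -0.74 and Ltf at -0.46 and a lower share of all called genes of 46.2% in place of 77.9%. On TPM 3 were called, since Cd177 (-0.93) and Lyz2 (-0.95) no longer passed the fold. Cd177 also lost its call without WT PB library 1 (-0.98), and Pglyrp1 gained one without that library (-1.01) or without WT lung library 2 (-1.03).

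The difference between the experiments in this contrast was tested over the WT libraries of both, in a fit added after the values had been seen. Of the 10 genes, 4 had a more negative lung minus PB difference in the Piezo1 experiment, against 22.6% of all 8158 genes tested (40.1% in either direction): Chil3 (-1.29, SE 0.18, adjusted p = 0.00047), Camp (-1.16, SE 0.15, adjusted p = 0.000334), Ngp (-0.93, SE 0.17, adjusted p = 0.00231) and Ltf (-0.92, SE 0.16, adjusted p = 0.00178). These were the 4 genes with the largest falls from BM. The other 6 had differences between -0.26 (Lcn2, adjusted p = 0.181) and -0.08 (Hp, adjusted p = 0.673). Without PB library 3 of the tissue comparison, which stood apart, all 10 were called, with differences from -1.44 for Chil3 to -0.21 for Hp, where 49.5% of all genes were called and 27.7% were called more negative. The 2 sets of libraries came from separate experiments, and which of the differences between them goes with this result cannot be told apart.

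**Figure D3:**
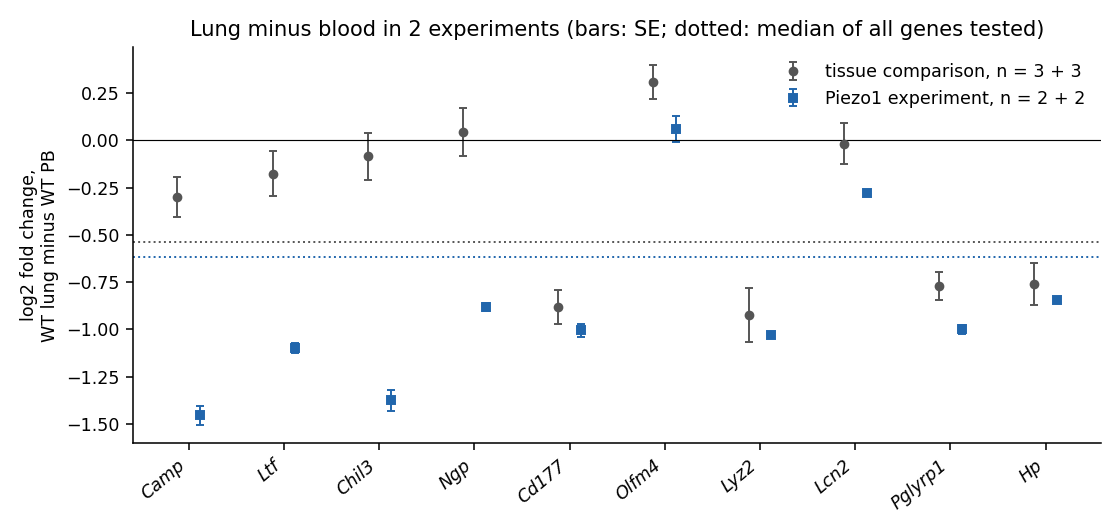
Log2 fold change of FPKM + 1, WT lung minus WT PB, with the standard error, in the tissue comparison (circles, 3 libraries per tissue) and in the Piezo1 experiment (squares, 2 per tissue). Dotted lines mark the median of all genes in each (-0.54 and -0.62). Camp, Ltf, Chil3 and Ngp are near 0 in the first and between -0.88 and -1.45 in the second, and the pairs of points of Cd177, Lyz2 and Hp lie close together.

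The Piezo1 experiment addressed what the loss of the mechanosensitive channel PIEZO1 in blood cells changes in neutrophils of the lung and the blood. In lung, none of the 10 genes passed the fold threshold in limma, which 0.995% of all 6434 genes did. By adjusted p alone, 7 were higher in Piezo1-cKO, against 35% of all genes. Chil3 differed the most, from 58.6 and 59.6 FPKM in WT to 101 and 101 in cKO (log2 difference 0.76, SE 0.03, adjusted p = 2.97e-05). Camp measured 91.0 and 96.0 FPKM in WT and 143 and 133 in cKO (0.56, SE 0.04, adjusted p = 0.000156). Ltf measured 121 and 120 FPKM in WT and 164 and 162 in cKO (0.43, SE 0.03, adjusted p = 0.000103). In each of these 3 both cKO libraries lay above both WT libraries. Olfm4 (14.4 and 13.8 against 19.8 and 19.4 FPKM, 0.45), Ngp (690 and 670 against 858 and 868, 0.34), Cd177 (67.4 and 67.7 against 80.5 and 82.9, 0.27) and Hp (1703 and 1720 against 1871 and 1859, 0.12) were also higher, with adjusted p-values between 0.000103 and 0.00117. Lcn2 went the other way, from 1063 and 1061 FPKM in WT to 850 and 865 in cKO (-0.31, SE 0.02, adjusted p = 9.69e-05), as did 15.8% of all genes. Lyz2 (2884 and 2856 against 2895 and 2819, adjusted p = 0.782) overlapped, and Pglyrp1 (760 and 792 against 741 and 740, adjusted p = 0.0538) did not pass, though the direction of both depended on the scaling, at 0.09 and 0.03 on TPM. The same 7 were higher when any 1 library was left out, and without WT lung library 1 Pglyrp1 was lower as well. After rescaling by the median ratio Hp no longer passed (0.03, adjusted p = 0.208), and Lyz2 (-0.10) and Pglyrp1 (-0.16) were lower.

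In blood the same 7 genes were higher in Piezo1-cKO by adjusted p alone, against 26.5% of all 7256 genes, and again none passed the fold threshold in limma, which 3.65% of all genes did. Chil3 measured 164 and 146 FPKM in WT PB and 262 and 264 in cKO PB (0.76, SE 0.06, adjusted p = 0.000317). Camp measured 246 and 271 FPKM in WT and 400.0 and 452 in cKO (0.72, SE 0.07, adjusted p = 0.000535). Ngp measured 1249 and 1257 FPKM in WT and 1992 and 2078 in cKO (0.70, SE 0.04, adjusted p = 0.000162). Ltf measured 263 and 257 FPKM in WT and 407 and 401 in cKO (0.63, SE 0.04, adjusted p = 0.000232). For these 4 the WT and cKO libraries did not overlap, and the cKO mean was 1.55 to 1.69 times the WT mean. Olfm4 (14.3 and 12.8 against 17.9 and 17.2, 0.35), Cd177 (139 and 134 against 167 and 175, 0.32) and Hp (3058 and 3089 against 3526 and 3257, 0.14) differed less, with adjusted p-values of 0.00842, 0.00181 and 0.035. Hp no longer passed without WT PB library 1 (adjusted p = 0.218) or 2 (adjusted p = 0.171) or after rescaling by the median ratio (adjusted p = 0.0616), nor did Olfm4 without WT PB library 2 (adjusted p = 0.0613). Lcn2 (1289 and 1289 against 1274 and 1390 FPKM, adjusted p = 0.459), Lyz2 (5837 and 5865 against 5161 and 5934, adjusted p = 0.317) and Pglyrp1 (1535 and 1567 against 1529 and 1567, adjusted p = 0.948) overlapped between genotypes, although Lcn2 was higher without cKO PB library 1 and Lyz2 lower without cKO PB library 2. The cKO PB libraries also carried red cell transcripts, with a summed FPKM of the 5 erythroid markers of 910 to 972 against 20.8 to 21.0 in WT PB, and 4 of 4 tested were called higher. Of the 5, only 2 were at 1 FPKM or more in both WT PB libraries, and 4 were in both cKO PB libraries. In lung the erythroid sum was 0.422 to 1.70 in cKO and 4.51 to 4.65 in WT, lower in the cKO libraries. The part of red cell RNA in the blood values was not tested.

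Whether the genotype difference itself differed between lung and blood was tested as an interaction. It was lower in lung for 3 of the 10 genes, against 18.5% of all 7560 genes (48.2% in either direction): Ngp (-0.35, SE 0.04, adjusted p = 0.000283), Lcn2 (-0.35, SE 0.05, adjusted p = 0.00102) and Ltf (-0.20, SE 0.04, adjusted p = 0.00434). For Ngp and Ltf that is a smaller excess of cKO over WT in lung than in blood, and for Lcn2 a lower level in cKO lung beside overlapping levels in blood. Chil3 was higher in cKO by 0.76 in both tissues (interaction 0.0033, SE 0.07, adjusted p = 0.974). On TPM the call of Ltf was lost (-0.13, adjusted p = 0.089). Without cKO PB library 2 the number called was 5, with Hp (-0.07) and Lyz2 (0.17) added, and without cKO PB library 1 Camp was added (-0.25). Pglyrp1 was added after rescaling by the median ratio (-0.14).

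**Figure D4:**
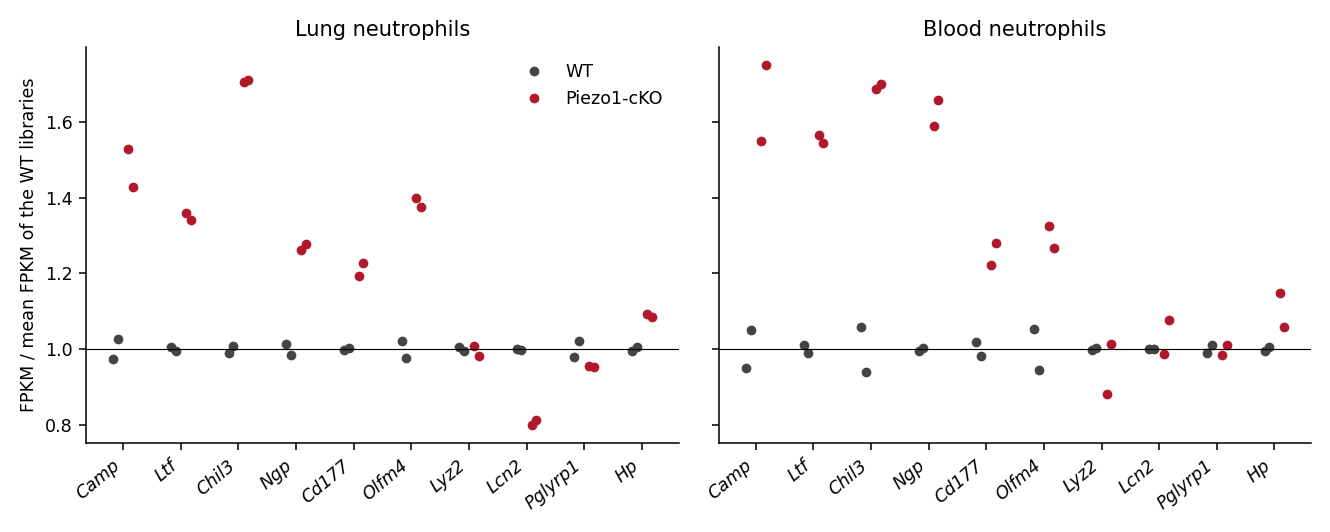
FPKM of each library of the Piezo1 experiment divided by the mean FPKM of the 2 WT libraries of the same tissue, for lung (left) and blood (right), with WT in grey and Piezo1-cKO in red. The cKO points of Camp, Ltf, Chil3, Ngp, Cd177, Olfm4 and Hp lie above the WT points in both tissues, those of Lcn2 lie below them in lung, and those of Lyz2 overlap in both.

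The depletion experiment asked what whole lung loses with its neutrophils. The 6 neutrophil markers had a summed FPKM of 165.6 to 203.8 with isotype antibody and 32.3 to 90.3 with anti-Ly6G, although none of the 5 tested was called (median log2 difference -1.48, adjusted p-values 0.129 to 0.329). For Csf3r the ranges were 11.4 to 12.7 and 1.83 to 5.27 FPKM. In bulk tissue RNA alone, fewer neutrophils and less RNA per neutrophil cannot be told apart. By flow cytometry, the authors reported efficient depletion of neutrophils in lung and blood, with monocytes unaffected. Of the granule genes, 8 of 10 passed the filter on low values and limma called none at an adjusted p under 0.05 and a log2 difference over 0.5, a rule met by 0.00715% of all 13990 genes. At an unadjusted p under 0.05 there was 1 (Pglyrp1), against 11.2% of all genes. Pglyrp1 was also the only one whose groups did not overlap, where 11.8% of all genes tested were lower without overlap, at 9.84, 10.9 and 10.4 FPKM with isotype antibody and 8.66, 7.59 and 7.19 after depletion (-0.37, SE 0.09, adjusted p = 0.216).

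The genes highest in whole lung overlapped between the groups. Lyz2 measured 5049, 6031 and 5738 FPKM with isotype antibody and 5514, 5727 and 5766 after depletion (0.02, SE 0.09). Hp measured 650, 706 and 958 FPKM and 732, 743 and 947 (0.08, SE 0.17), and Chil3 measured 507, 588 and 637 and 634, 581 and 635 (0.10, SE 0.10). The groups overlapped for all 3, and Chil3 stood at more FPKM in whole lung than in any sorted lung or PB library. Lcn2 measured 30.1, 37.9 and 48.6 FPKM and 48.4, 60.4 and 45.0 (0.41, SE 0.18, adjusted p = 0.473). Ltf varied widely within each group, at 18.6, 33.8 and 37.5 FPKM and 24.5, 50.2 and 16.2 (-0.07, SE 0.42). Ngp and Cd177, abundant in sorted BM neutrophils, were low in whole lung. Ngp measured 1.13, 1.98 and 1.34 FPKM and 1.38, 0.673 and 0.630 (-0.40, SE 0.20, adjusted p = 0.51), and Cd177 measured 2.36, 2.09 and 2.48 and 2.42, 1.45 and 1.32 (-0.30, SE 0.16, adjusted p = 0.547). Camp (0.675, 0.539 and 0.706 against 1.201, 0.185 and 0.0958 FPKM) and Olfm4 (0.0217, 0 and 0 against 0.0710, 0.166 and 0) were under the filter and were not tested. Depleted library 1 had the highest Camp, Ngp and Cd177 of its group. The summed monocyte and macrophage markers were 126.5 to 132.5 FPKM and 106.5 to 129.5. The sums for B cells (48.8 to 52.4 and 18.2 to 42.1 FPKM), T cells (8.56 to 10.3 and 5.21 to 8.12) and basophils and mast cells (1.07 to 1.59 and 0.467 to 0.891) were also lower after depletion without overlap, none of the B or T cell markers was called, and their part in these values was not tested. Lyz1, the paralog of Lyz2, was at 522.7 ± 138 and 404.4 ± 39.3 FPKM (SD, n = 3), far above its 2.13 FPKM in sorted lung neutrophils.

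**Figure D5:**
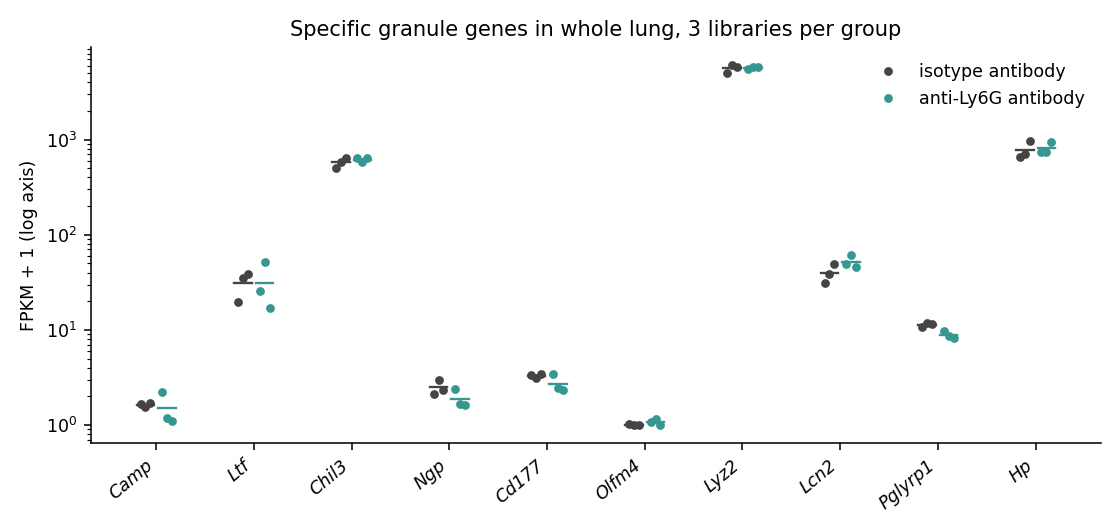
FPKM + 1 (log axis) of the 10 genes in whole lung, with 1 point per library and a line at the mean of the 3 libraries with isotype antibody and the 3 with anti-Ly6G antibody. Lyz2, Hp and Chil3 stand highest in both groups, the groups of Pglyrp1 do not overlap, and Camp and Olfm4 lie near the bottom of the axis.

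Other genes of the specific granule did not all follow these 10. Of 11 further genes, 10 were tested against BM, and in lung 8 were lower and 2 higher, in PB 5 lower and 1 higher. Of all genes tested, 36% were called lower in lung and 14.1% in PB. Orm1 (named after its values were seen) was among the lower in PB, at 40.16 FPKM in BM and 0.561 in PB. In PB against BM it passed the filter only through BM. Mmp8 (neutrophil collagenase) fell from a mean of 2083 FPKM in BM to 319.5 in PB and 179.5 in lung (log2 differences -2.71 and -3.53). Slpi, an inhibitor of serine proteases, went the other way, from 889.3 FPKM in BM to 1869 in PB and 2089 in lung (1.07 and 1.23). Cyba (924, 614.8 and 448.6 FPKM) and Itgam (764, 402.5 and 371) were both at -1.04 in lung and did not pass the fold in PB. Cybb, the other subunit of the NADPH oxidase cytochrome, was singled out after its values were seen: it went from 510.8 FPKM in BM to 18.6 in PB and 16.1 in lung (-4.73 and -4.90), a fall close to that of Cd177, while Cyba lost far less. Between lung and PB none of the 9 tested was called in the tissue comparison, against 27.2% of all genes. By adjusted p alone 1 was higher and 4 lower in lung, where 16% and 69.6% of all genes were. In the Piezo1 experiment none of 10 was called, where 26.5% of all genes were called lower. By adjusted p alone 2 were higher and 6 lower, where 72.5% of all genes were lower. In Piezo1-cKO blood 1 was called higher, Orm1 at 1.08 (named after its values were seen), where 3.65% of all genes were called. Orm1 was at 0.487 and 1.453 FPKM in WT PB and 2.668 and 3.445 in cKO PB, so WT PB alone did not pass the filter. By adjusted p alone 7 were higher and 3 lower, where 26.5% and 23.2% of all genes were. Among them were Mmp8 at 0.33 and Slpi at 0.18 higher, and Cyba at -0.14 and Itgam at -0.18 lower. In cKO lung none of 10 was called, and by adjusted p alone 3 were higher and 2 lower, where 35% and 15.8% of all genes were. In whole lung 10 were tested, with adjusted p-values of 0.329 or more.

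Genes of the other granule classes were measured in the same libraries. Of 9 primary granule genes only 5 could be tested against BM, because the others were already low there. Cd63, a granule membrane tetraspanin, went from 161.9 FPKM in BM to 61.14 in PB and 91.77 in lung and was called lower in PB (-1.39). Gusb, a lysosomal glucuronidase, measured 17.29, 12.52 and 8.298 FPKM, and Prss57 and Prtn3, both serine proteases, had means of 0.883 to 2.30 FPKM in the 3 tissues. The fifth, Ms4a3 (named after its values were seen), was at 3.777 FPKM in BM, 0 in PB and 0.0393 in lung and passed the filter only through BM. Of 5 gelatinase granule genes, 3 were lower and 2 higher in lung than in BM, and 2 lower and 1 higher in PB. Of all genes tested, 36% were called lower in lung and 14.1% in PB. Fcnb (named after its values were seen) was among the lower in both, at 34.41 FPKM in BM, 0.216 in PB and 0.322 in lung. It passed the filter only through BM. Mmp9 (gelatinase B) went from 2762 FPKM in BM to 1609 in PB and 777.9 in lung. Slc11a1, a metal transporter, rose from 102 to 218 and 530 FPKM, and Adam8, a surface protease, was at 335, 291 and 809. Between lung and PB in the tissue comparison, Adam8 (1.48) and Slc11a1 (1.28) were called higher and Mmp9 (-1.04) lower, where 27.2% of all genes were called. In the WT mice of the Piezo1 experiment 1 of 4 tested was called higher and 0 lower. By adjusted p alone 1 was higher and 3 lower there, where 72.5% of all genes were lower. Slc11a1 was at 276.2 FPKM in that lung and 312.8 in PB, and Adam8 at 555.6 and 227.0. In whole lung Mmp9 measured 8.66 ± 2.23 FPKM with isotype antibody and 2.12 ± 0.653 after depletion (SD, n = 3), a difference of -1.63 that did not pass (adjusted p = 0.0762). Between the genotypes none of the primary and gelatinase granule genes passed the fold threshold. By adjusted p alone Gusb was higher in both lung (0.54) and blood (0.33), and Prtn3 was lower in lung (-0.87). Prtn3 was at 1.026 and 1.934 FPKM in WT lung and 0.144 and 0.559 in cKO lung, and it passed the filter only through WT. Of the gelatinase granule genes, 1 was higher and 1 lower in cKO lung by adjusted p alone, where 35% and 15.8% of all genes were. In cKO blood 1 was lower, where 23.2% of all genes were.

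Of 7 transcription factors known to act on granule genes, 4 were lower and 1 higher in lung than in BM, and 2 lower and 1 higher in PB. Of all genes tested, 36% were called lower in lung and 14.1% in PB. Gfi1 (named after its values were seen) was among the lower in both, at 5.69 FPKM in BM, 0.440 in PB and 0.704 in lung. It passed the filter only through BM. Cebpe (C/EBPε), needed for specific granule formation, went from 203 FPKM in BM to 15.4 in PB and 3.73 in lung (-3.64 and -5.44). It was also called lower in lung than in PB (-1.80, adjusted p = 6.89e-07). In that contrast the 10 genes ranged from -0.92 (Lyz2) to 0.31 (Olfm4), with Camp at -0.30, Ltf at -0.18, Chil3 at -0.08 and Ngp at 0.04. In WT mice of the Piezo1 experiment Cebpe was at 5.37 FPKM in lung and 18.0 in PB. There the 10 genes ranged from -1.45 (Camp) to 0.06 (Olfm4). In the tissue comparison Cebpb rose from 356 FPKM in BM to 918 in PB and 2968 in lung (1.36 and 3.06). Cebpd measured 149, 273 and 33.3 FPKM and was called lower in lung against both BM (-2.13) and PB (-2.997). Spi1 (PU.1) stayed within the fold threshold at 391, 655 and 428 FPKM (0.74 in PB and 0.13 in lung against BM). Between the genotypes none of the 6 tested passed the fold threshold in lung or blood, and by adjusted p alone 1 was higher and 1 lower in each tissue. Of all genes, 35% were higher and 15.8% lower in lung at that level, and 26.5% and 23.2% in blood. Cebpe was at -0.34 in cKO lung (adjusted p = 0.0551) and 0.19 in cKO blood (adjusted p = 0.119). By adjusted p alone 7 of the 10 granule genes were higher in both, and Lcn2 was lower in lung.

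Over the 17 sorted libraries, the genes whose profile was most like the mean of the 10 were Anxa3, with a root mean square difference of 0.187 in log2 units after centring within each experiment, Mgst2 (0.196), Lta4h (0.224), Golim4 (0.230) and Ifitm6 (0.244), out of 3695 genes compared. Anxa3 (annexin A3) was at 146.2 FPKM in BM, 8.94 in PB and 7.89 in lung. Lta4h, an enzyme of leukotriene B4 synthesis, was at 267.7, 19.0 and 14.5. Among the 10 themselves, Ltf and Chil3 were each other's nearest of all genes (0.115), Ngp was nearest to Ltf (0.116) and Camp to Chil3 (0.134). Each of the other 6 had its nearest profile outside the group, for example Arpc1b for Hp (0.0542) and Fermt3 for Pglyrp1 (0.0774). Hp lay farthest from the mean of the 10 (1.24) and Cd177 nearest (0.251). These distances are descriptions over libraries that share tissues and scaling.

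The genes that lie between Camp, Ngp and Ltf on chromosome 9 were counted as well. The interval from Camp to Ltf covers 1195.4 kb with 43 other annotated genes, of which 28 were in the table. In lung against BM 11 of these were tested, with 4 called lower and 1 higher, where 36% of all genes were called lower. Their median log2 difference was -0.83, and that of all genes was -0.70. In PB 12 were tested, with 1 called lower, where 14.1% of all genes were. Their median was -0.02, and that of all genes was -0.12. Within the interval the lowest of them in both was Cdc25a, a cell cycle phosphatase (named after its values were seen), at -2.94 in lung and -2.48 in PB, against -5.73 to -6.28 and -5.78 to -5.98 for the 3 granule genes. Among paralogs that could share reads, Lyz2 and Lyz1 transcripts were 96.0% identical and Chil3 and Chil4 94.4%, with identical runs of up to 118 and 136 bases. In sorted neutrophils Lyz1 was listed at 35.5 FPKM in BM, 5.37 in PB and 2.13 in lung, and the mean of Chil4 was highest in BM at 0.839 FPKM, far below Lyz2 and Chil3 in the same libraries. In whole lung, the split of reads between Lyz1 and Lyz2 is uncertain.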

How the data were processed

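Neutrophils were sorted from BM, PB and perfused lung, and whole lung was taken after antibody injection. The labels name poly(A) selection, and the submitters' processing notes name fastp, HISAT2, HTSeq and mm10. The authors deposited FPKM for each library in 4 tables, of which the Piezo1 experiment had 1 for lung and 1 for PB. Columns of the authors' own comparisons (fold changes, p-values and adjusted p-values) were not used. Each library was matched to its column by name.

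Whole reads were recovered from the FPKM of the sorted libraries (100.0% of values within 0.02 reads of a whole number), which gave 9621001 to 19330671 reads per library. A count of 0 allows up to 3 reads, for counting error only. The whole lung table gives no depth. Tests ran on log2(FPKM + 1) in limma 3.58.1 (R 4.3.3, trend and robust) over genes with at least 1 FPKM in 3 libraries (2 in the Piezo1 experiment). Contrasts of lung with PB in the Piezo1 experiment and the difference between experiments ran across tables. In the 8 libraries of the Piezo1 experiment, reads times the recovered library factor deviated from their median by at most 0.0041%, so each library was scaled to its own total and not per table. Fold changes of low genes are understated on this scale. A gene was called at an adjusted p under 0.05 and a log2 difference over 1 (0.5 in whole lung, none for the interaction and the difference between experiments). The fits were checked on simulated data. Marker sums, distances and promoter matches were computed in Python 3.11.15, and transcript identities with Biopython 1.88.

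The 10 genes, the related lists and the tests were chosen with earlier results of these data known. Up to 4 genes of each related list are named, those with the highest mean FPKM, with exceptions marked. Same-numbered libraries deviated from their group means with correlations of -0.089 to 0.059, so the numbers were not treated as pairs. Symbols listed more than once in whole lung were represented by the entry with the highest mean, which dropped 1 entry of the lists. Alternatives were the pseudocount, the filter, the scaling (median ratio and TPM), a replicate block, 1 fit per experiment, the threshold and leaving out each library.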

Additional observations from a re-analysis of the deposited data

Results flagged for a closer look

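The difference between Piezo1-cKO and WT was not the same in lung and blood for 3 of the 10 genes, by an interaction test in limma over 2 libraries per group, in which 48.2% of all 7560 genes were called. The difference of lung minus blood was -0.35 for Ngp (adjusted p = 0.000283), -0.35 for Lcn2 (adjusted p = 0.00102) and -0.20 for Ltf (adjusted p = 0.00434), all on the log2 scale. Ngp and Ltf were higher in cKO in both tissues, and less so in lung, while Lcn2 was lower in cKO lung and overlapped between genotypes in blood. The cKO PB libraries held summed erythroid markers of 910 to 972 FPKM against 20.8 to 21.0 in WT PB, and the part of this in the interaction was not tested.

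The difference between WT lung and WT PB was not the same in the 2 experiments for 4 of the 10 genes, where 40.1% of all 8158 genes were called. It was more negative in the Piezo1 experiment by -1.29 for Chil3 (adjusted p = 0.00047), -1.16 for Camp (adjusted p = 0.000334), -0.93 for Ngp (adjusted p = 0.00231) and -0.92 for Ltf (adjusted p = 0.00178). In the tissue comparison the PB mean of Ngp was 358.1 ± 73.1 FPKM (SD, n = 3), and in the Piezo1 experiment it was 1253 ± 5.96 (SD, n = 2).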

How the results depend on the processing

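No value called by the rule of its comparison reversed under any alternative run. Values that passed by adjusted p alone, in comparisons with a fold threshold, could not count as reversed. Median-ratio rescaling changed the sign of such values for Camp and Lcn2 (adjusted p from limma). Camp in lung minus PB of the tissue comparison went from -0.30 (adjusted p = 0.0282) to 0.29 (adjusted p = 0.0443). Lcn2 in WT lung minus WT PB went from -0.28 (adjusted p = 2.42e-06) to 0.37 (adjusted p = 9.66e-07). Of 1066 alternatives for 88 values of single genes, 974 kept the direction and the side of the threshold. In 40 a value that was not called changed sign, 39 newly passed the threshold and 13 no longer passed. The 9 genes called lower in lung and the 9 in PB against BM stayed at 9 under every alternative that leaves out a library. Between lung and PB in the tissue comparison, 0 were called, 6 by adjusted p alone (6479 of all 7577 genes) and 0 to 1 with a library left out. In the Piezo1 experiment 5 were called between WT lung and WT PB, 0 after median-ratio rescaling, 3 on TPM, 9 by adjusted p alone and 5 to 6 with a library left out. Between genotypes, 8 differed in lung and 7 in PB by adjusted p alone, where 3265 of all 6434 genes and 3607 of all 7256 did. For the interaction 3 were called, 0 with an absolute difference over 1 as well, and 3 to 5 with a library left out. For the difference between experiments 4 were called, and 4 to 10 with a library left out, with the 10 reached without PB library 3 of the tissue comparison. Leaving out 1 of 2 libraries assumes that the remaining one varies like the other groups. The cause of these changes was not tested, beyond the fewer samples and thresholds that define the alternatives. The replicate block changed no count of these genes (9, 9, 0, 5, 0, 0, 3 and 0 as in the fits without it), and by adjusted p alone it added Pglyrp1 as lower in cKO lung (adjusted p = 0.0419). Over all genes, the count between genotypes in lung was 64, with 332 at a pseudocount of 0.1 and 186 on TPM. In PB it was 265, with 672 and 420, and 174 without WT PB library 1. Between WT lung and WT PB of the Piezo1 experiment it was 2429 of 7143 genes, 6360 by adjusted p alone and 1615 after median-ratio rescaling. For the interaction it was 3647, with 5509 without the filter and 518 with the added fold. In whole lung it was 1, with 4 at most under the other settings without a block, 5 with it and up to 12 with a library left out.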
